A study of Mus musculus with 136 samples.

Results

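The 10 genes described here encode heat shock chaperones: Hspa8, Hspa1a, Hspa1b, Hspb1, Hsph1, Dnajb1, Hsp90aa1, Hsp90ab1, Hspd1 and Hspe1. They were selected by gene symbol, each symbol matched 1 row, and together they made up 10 of the 47643 genes of the count table. The set was chosen on earlier results of these same libraries, in which Hspa8 had differed in opposite directions between diabetic and normal pregnancies in embryos and in yolk sacs at the 5–6 somite stages. Differences between diabetic and normal pregnancies at the 5–6 somite stages are therefore given below as a description without a test. They are given for Hspa8 and for each other gene that passed the filter on low counts in the tissue, which Hspa1a did not in either tissue and Hspa1b did not in embryos.

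Heat shock proteins bind newly made or unfolded proteins, keep them from clumping and help them reach their folded state. Inducible members are switched on by heat, oxidants and other protein damage through the transcription factor HSF1, which binds repeated copies of a short motif in their promoters, while constitutive members are made in unstressed cells. Rapidly growing embryonic tissue makes large amounts of the constitutive members, and embryos before and during neural tube closure are known to be sensitive to heat. Hspd1 and Hspe1 encode the chaperonin Hsp60 and its lid Hsp10, which work in the mitochondrial matrix, so that only 8 of the 10 genes encode cytosolic chaperones.

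The libraries came from the embryo and the visceral yolk sac of 66 concepti of NOD mice, a strain in which diabetes arises spontaneously, collected at E8.5. The comparison groups were formed by tissue, by somite stage (5–6 or 7–9 somite pairs) and by the mother, with 17 concepti from normal and 17 from diabetic dams at the 5–6 somite stages and 16 from each at the 7–9 somite stages. All groups shared the strain, and the labels name no drug and no transgene. Blood glucose in the labels was 105 to 164 mg/dl for the 10 normal dams and 423 to 595 mg/dl for 11 of the 12 diabetic dams, the remaining one being given only as above that scale. Littermates share a dam, and the concepti at the 7–9 somite stages came from 7 normal and 6 diabetic litters, of which the litter D24M15 gave 7 of the 16 diabetic concepti. P-values over concepti take littermates as independent. Results between pregnancies are also given by litter for Hspa8, Hsp90aa1 and Hsp90ab1, and for the other genes over concepti only. Exact permutation tests of litter means were run for every gene in each tissue at the 7–9 somite stages, and the lowest adjusted p was 0.256.

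Total counts per library ranged from 1017901 to 5658850 with a median of 2302819, and each count stood for 1 molecule tagged at the 3′ end of its RNA, so that levels of different genes can be compared without a correction for length. Values below are normalized counts, that is counts divided by the library's size factor. The tissue labels were checked against markers: the summed level of 10 visceral endoderm genes lay between 96.3 and 3362 normalized counts in embryos and between 10370 and 53510 in yolk sacs. The sum of 6 neural genes lay between 499 and 1940 in embryos and between 1.42 and 95.1 in yolk sacs. For 5 heart genes, which were higher in embryos by group, the ranges overlapped, 152 to 3062 against 33.1 to 1441. The sum of 5 decidua genes reached 887 in a later yolk sac of a diabetic pregnancy, where the group median was 119. How much other tissue such libraries held was not tested. In bulk tissue, fewer cells of a type and less RNA per cell cannot be told apart. The submitters had repeated 4 libraries, and the repeats were left out. The largest difference between a repeat and its original was 0.31 on the log2 scale for Hspa8 and at most 0.41 for the other genes except Hspa1a, whose counts there reached 0 and whose largest difference was 1.30.

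The promoters are shown because HSF1 acts through them. RefSeq promoter windows of the assembly GRCm38.p6, which reach from 250 bases before to 50 after the start of transcription, were at hand for 7 of the 10 genes, 10 windows in all since some genes have 2 starts, and not for Hspa8, Hsp90aa1 and Hsp90ab1. The 250 bases before the start were searched. A pair of HSF1 motif units facing each other, GAANNTTC or TTCNNGAA (each reads the same on both strands), was present in 7 of the 10 windows, which belong to 6 of the 7 genes, and in 12.8% of all 32851 windows of that length. Some of the 7 windows hold the same site or a copy of it, as given below, so they do not count separate sites. It was not found in the windows of Dnajb1. An element of 3 or more such units in alternating orientation was present in the window of Hspe1, in 1 of the 2 windows of Hspd1 and in 0.466% of all windows. Capitals mark the units, and each stretch is written 5′ to 3′ on the strand of its gene. The windows of Hspa1a, at chr17:34972229-34972284 on the minus strand, and of Hspb1, at chr5:135887778-135887853 on the plus strand, read as follows. The stretch of Hspa1a occurs base for base before Hspa1b, at chr17:34959311-34959366 on the minus strand, and the upstream windows of Hspa1a and Hspa1b were identical at 247 of 250 bases.
Hspa1a: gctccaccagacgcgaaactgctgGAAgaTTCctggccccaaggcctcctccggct
Hspb1: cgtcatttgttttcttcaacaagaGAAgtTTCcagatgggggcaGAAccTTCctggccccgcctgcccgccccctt
Hsph1: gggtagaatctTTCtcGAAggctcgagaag
Hspe1: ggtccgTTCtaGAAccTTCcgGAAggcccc
Hspd1: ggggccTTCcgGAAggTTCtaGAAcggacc
The stretch of Hsph1 lies at chr5:149636351-149636380 on the minus strand and falls in both windows of that gene. The stretches of Hspe1 and Hspd1 are the 2 strands of chr1:55088053-55088082, and these 2 genes are transcribed from opposite strands. This stretch and that of Hsph1 overlap annotated exons. The start of Hspd1 whose window holds the element lies 216 bases from that of Hspe1, with the element between them. From the other listed start of Hspd1, whose window holds no pair, the transcripts overlap by their first bases. A match of letters is not evidence of binding, and HSF1 was not measured here.

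All 10 genes lie on 6 chromosomes of GRCm38. Hspa8 spans chr9:40800984-40810087, Hsp90aa1 chr12:110690605-110702728, Hsp90ab1 chr17:45567775-45573271 and Dnajb1 chr8:83608193-83612653. Hspa1a (chr17:34969190-34972156) and Hspa1b (chr17:34956436-34959238) are neighbouring copies on the minus strand. Hspb1 (chr5:135887919-135889563) and Hsph1 (chr5:149614287-149636376) share a chromosome, as do Hspd1 (chr1:55077835-55088243) and Hspe1 (chr1:55088132-55091307). Because the reads come from the far end of an RNA, the annotated transcript ends were searched, over their last 500 bases, for stretches of 75 bases that also occur in transcripts of other genes. No such stretch was found for Hspa1a, Hspa1b, Hsph1 and Dnajb1, and 0.675% of the stretches of Hsp90ab1 were shared. The shares were 20.9% for Hsp90aa1, 22.1% for Hspd1, 36.5% for Hspb1 and 39.0% for Hspe1. Hspa8 had the largest share, 65.4% of 852 stretches, with 10 other genes of which 9 are annotated as pseudogenes. These shares pool all annotated transcripts of a gene, short ones included. In the longer transcripts Hspa8-201 and Hspa8-202 the share was 83.8%, and the unshared stretches began within 143 bases of the end. It was 0% in Hsp90aa1-201, Hsp90aa1-202 and Hspd1-201, the longer ones of their genes, and 51.9% and 10.3% in Hspb1-201 and Hspb1-202. How reads matching several genes were counted is not given in the sources used here, so the level of Hspa8 is uncertain in a way that the levels of Hspa1a and Hspa1b are not. The rows of genes sharing its ends held 13.4 counts per library in sum, against 107 for Hspa8.

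The levels of the 10 genes spanned 4 orders of magnitude. Hsp90ab1, the constitutive Hsp90, was highest in every library, with group means from 11260 to 18780 normalized counts. Hsp90aa1, the inducible Hsp90, came second with group means from 2874 to 4017. Hspd1 followed with 903 to 1491, then Hsph1 with 540 to 749 and Hspe1 with 457 to 748, which changed places between groups, and Dnajb1 with 208 to 297. Hspa8 had group means from only 60.2 to 164. Hspb1 had 8.43 to 52.3, Hspa1b 6.27 to 45.8 and Hspa1a 2.19 to 26.3. Hsp90ab1 was above Hsp90aa1, and Hsp90aa1 above Hspd1, in each of the 132 libraries. The order of Hsph1 and Hspe1 did not hold within libraries, and in the yolk sacs of diabetic pregnancies at the 7–9 somite stages Hsph1 was the higher of the pair in 8 of 16. The order of Hspa1b and Hspb1 did not hold either: among embryos of normal pregnancies at the 5–6 somite stages Hspa1b was the higher in 8 of 17.

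**Figure D1:**
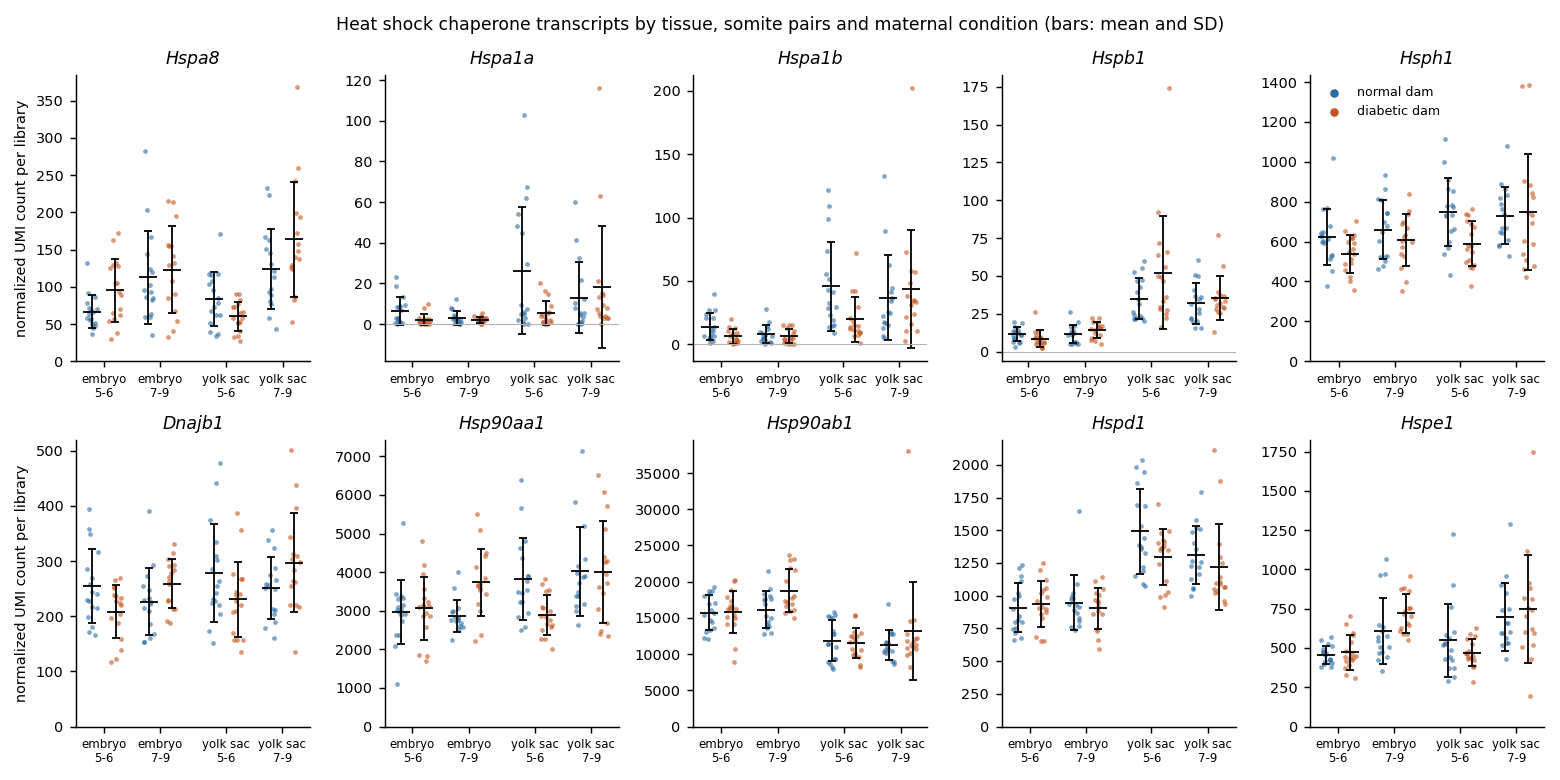
Normalized counts (linear axes, 1 panel per gene) of the 10 genes in the 132 libraries, by tissue, somite pairs and mother; points are libraries and bars are group means with the SD. Hsp90ab1 lies between 7931 and 38010 in every library, and Hspa1a reaches from 0 to 116 among the yolk sacs of diabetic pregnancies at the later stages.

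Hspa8, the constitutive Hsp70 of the cytosol, rose from the 5–6 to the 7–9 somite stages in both tissues. In embryos of normal pregnancies its lowest, median and highest values were 36.4, 63.8 and 132 normalized counts at 5–6 somite pairs, against 35.9, 94.5 and 282 at 7–9. In embryos of diabetic pregnancies they were 29.3, 92.9 and 173, and later 32.2, 130 and 216. The ranges overlapped throughout, and the later libraries reached higher without losing the low end. In yolk sacs of normal pregnancies the values were 33.7, 78.4 and 172 at 5–6 somite pairs, against 43.0, 117 and 232 at 7–9, and in those of diabetic pregnancies 27.4, 58.6 and 90.5, and later 53, 144 and 368. In the last of these pairs the later median lay above the highest earlier library. The change between stages, averaged over normal and diabetic pregnancies, was 0.59 ± 0.16 (SE) on the log2 scale in embryos (edgeR's quasi-likelihood test with Benjamini-Hochberg adjustment, adjusted p = 0.00311) and 1.04 ± 0.15 in yolk sacs (adjusted p = 4.33e-08). The earlier groups, whose difference in Hspa8 between pregnancies had entered the choice of genes, are part of these averages. Tests of Hspa8 that use the earlier groups therefore share values with that choice. A gene is called here when its adjusted p is under 0.05. Over all genes tested, 15% were called higher at the later stages in embryos and 21.7% in yolk sacs, against 3 of 9 genes of the set in embryos and 3 of 10 in yolk sacs. The difference of Hspa8 between the 2 tissues in this change was 0.45 ± 0.22, with an adjusted p of 0.262. Markers of other cell types moved with stage as well. In embryos 5 of 5 heart genes and 3 of 3 tested genes of primitive red cells were called higher at the later stages, the summed level of the latter going from 2.56–151 to 19.4–4633 normalized counts over the libraries of a stage. In yolk sacs 8 of 10 visceral endoderm genes were called higher and 1 lower, and 4 of 5 genes of primitive red cells higher. Their part in the change of Hspa8 and of the genes below was not tested. Between tissues Hspa8 differed by -0.10 ± 0.14 at the 5–6 somite stages (adjusted p = 0.496) and by 0.30 ± 0.17 at the 7–9 somite stages (adjusted p = 0.0959), where the conceptus as a block, which pairs each embryo with its own yolk sac, gave 0.34 (adjusted p = 0.0494).

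Medians of Hspa8 by single somite number were 75.1, 63.2, 86.6, 154 and 87.6 normalized counts in embryos with 5, 6, 7, 8 and 9 somite pairs, and 69.1, 62.8, 97.2, 145 and 157 in their yolk sacs. In embryos the value at 9 somite pairs, from 8 embryos of 6 litters, lay back near that at 7. Within litters that had concepti at both stages, with the litter as a fixed term in the same test, the change was 0.95 in yolk sacs (adjusted p = 2.78e-04) but 0.30 in embryos (adjusted p = 0.157), so that in embryos the test did not hold within litters. Without the litter D24M15 the changes were 0.47 in embryos and 0.79 in yolk sacs (adjusted p = 0.0357 and 4.04e-05). With the counts of the 8 rows that share transcript ends with Hspa8 added to it, they were 0.54 and 0.90, and both stayed called. Reads left uncounted for matching several genes would be in none of these rows, so this sum cannot settle how such reads bear on Hspa8. By pregnancy, as a description only since the 5–6 somite groups had entered the choice of genes, the change in yolk sacs was 0.61 ± 0.21 in normal and 1.47 ± 0.21 in diabetic pregnancies, and in embryos 0.78 ± 0.23 and 0.40 ± 0.22.

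**Figure D2:**
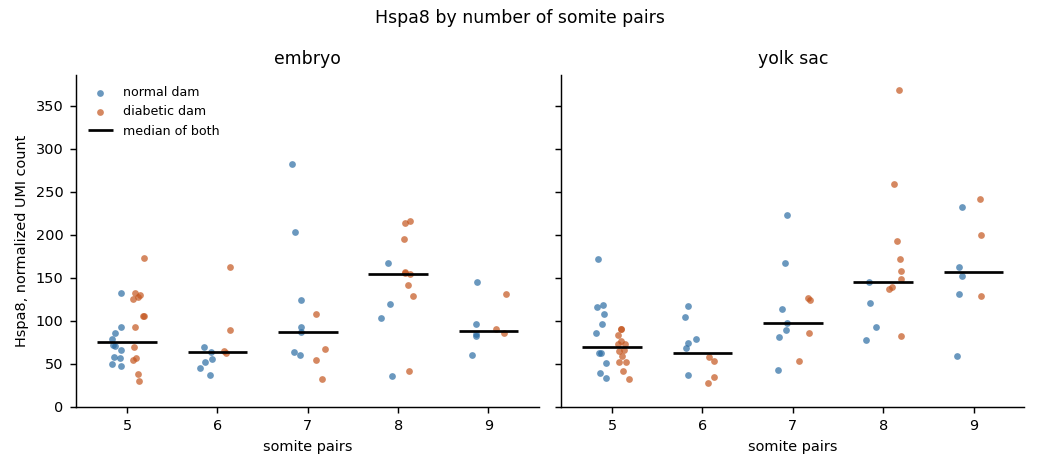
Normalized counts of Hspa8 by number of somite pairs in embryos and yolk sacs; each point is a library, colour gives the mother, and bars are medians over all libraries of a somite number. The medians rise from 69.1 at 5 to 157 at 9 somite pairs in yolk sacs, while in embryos the highest median, 154, lies at 8.

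At the 5–6 somite stages, Hspa8 was on average 0.52 ± 0.19 (SE) higher on the log2 scale in embryos of diabetic pregnancies and differed by -0.46 ± 0.19 in their yolk sacs, a difference between tissues of -0.98 ± 0.27. These values describe the pattern by which the genes were chosen and carry no test, and in the 34 other ways of fitting tried in each tissue they ranged from 0.37 to 0.73 and from -0.54 to -0.30. In these contrasts 1.46% of 11004 genes were called in embryos, 0% of 10250 in yolk sacs and 0% of 11677 between the tissues, by the same test and threshold (unadjusted p under 0.05 for 2313, 863 and 895 genes). The libraries overlapped widely: 29.3 to 173 against 36.4 to 132 normalized counts in embryos, and 27.4 to 90.5 against 33.7 to 172 in yolk sacs. At the 7–9 somite stages, which the choice did not use, the difference over concepti had the same sign in both tissues. It was 0.14 ± 0.25 in embryos (95% interval -0.36 to 0.64, adjusted p = 0.734) and 0.40 ± 0.20 in yolk sacs (-0.02 to 0.81, adjusted p = 0.483), and its difference between tissues was 0.26 ± 0.33 (adjusted p = 0.712). Without the litter D24M15 the difference between pregnancies was -0.25 in embryos and -0.02 in yolk sacs, so neither positive value held without that litter. Means of 6 diabetic and 7 normal litters differed by -0.10 in embryos and 0.06 in yolk sacs, with opposite signs (exact permutation test, p = 0.807 and 0.790, adjusted p = 0.849 for both).

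Hspa8 was uneven between libraries for a gene of its level. The SD of its log2 values within groups was 0.69 in embryos and 0.63 in yolk sacs, where genes of like mean had medians of 0.31 and 0.35. The genes whose log2 values followed it most closely within groups were, of 6440 compared over 66 embryos, Rpl34 (r = 0.853), Gapdh (0.840), Rpl10 (0.829), Rps2 (0.823) and Rps23 (0.816), and of 6479 compared over 66 yolk sacs, Rps23 (0.835), Rps3a1 (0.824), Rpl34 (0.806) and Ube2g2 (0.803). These r values are descriptions across libraries that share depth and preparation. Several of these genes also have ends shared with other genes, which was the case for 89.9% of the stretches of Rpl10, 73.9% of Rps2, 58.9% of Rps3a1, 58.6% of Gapdh and 48.4% of Rps23, but for 12.4% of Rpl34 and 1.86% of Ube2g2. The first principal component of all other genes, which held 27.8% of the variance within groups in embryos and 29.1% in yolk sacs, correlated with Hspa8 at r = -0.759 and -0.639, while log2 of the total count correlated with it at -0.09 and 0.09. With that component as a covariate, the rise between stages was 0.60 in embryos and 0.94 in yolk sacs (adjusted p = 7.62e-06 and 1.64e-09). What the component stands for was not tested.

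Hspa1a and Hspa1b, the 2 heat-inducible Hsp70 genes, were low in most libraries and far higher in yolk sacs than in embryos. In embryos, Hspa1b ranged from 0 to 39.4 normalized counts over all 66 libraries, with group medians from 4.57 to 10.4. In yolk sacs it ranged from 1.09 to 202.5, with group medians of 32.3, 13.3, 25 and 33.6 in normal and diabetic pregnancies at the earlier and then the later stages. Hspa1a was at 0 in 1 to 4 libraries of every group and reached 23.1 in embryos and 116 in yolk sacs. Both tissues thus held libraries with next to none of either RNA, and the high values came from a minority of yolk sacs. Between tissues, averaged over pregnancies, Hspa1b was higher in yolk sacs by 1.78 ± 0.27 at the 5–6 and 2.43 ± 0.30 at the 7–9 somite stages on the log2 scale (edgeR, adjusted p = 2.23e-08 and 2.57e-11). Hspa1a was higher by 1.82 ± 0.40 at the 5–6 somite stages (adjusted p = 3.43e-05) and was too low to be tested at the later ones. Neither was called, where tested, between stages averaged over pregnancies. By pregnancy, as a description, the changes between stages had opposite signs. In yolk sacs Hspa1a changed by -1.07 ± 0.54 in normal and 1.53 ± 0.60 in diabetic pregnancies, and Hspa1b by -0.32 ± 0.37 and 1.10 ± 0.39. In embryos Hspa1b changed by -0.81 ± 0.40 and 0.16 ± 0.44. Where tested, neither was called between pregnancies: at the 7–9 somite stages the difference of Hspa1b in yolk sacs was 0.21 ± 0.38 (95% interval -0.55 to 0.97, adjusted p = 0.880). At the 5–6 somite stages it was -1.22 ± 0.35 in yolk sacs, given without a test. Of the genes whose log2 values followed Hspa1b most closely within groups, the first 5 in embryos were Xbp1 (r = 0.750), Tmem43 (0.705), Kdm3a (0.687), Syvn1 (0.659) and Nsfl1c (0.653), and in yolk sacs Rsrp1 (0.714), Socs7 (0.645), Ttll4 (0.617), Dusp1 (0.579) and Ankrd10 (0.573), as descriptions over 66 libraries each.

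Littermates were alike in some of the genes. The share of the variance within groups that lay between litters was 0.655 for Hspa1b, 0.616 for Hspa1a, 0.588 for Dnajb1 and 0.380 for Hsph1 in yolk sacs, against a median of 0.0677 over 10277 genes, and 0.00132 for Hspa8. The other 5 genes had at most 0.247 there, Hspb1 with 0.0725 among them. In embryos it was 0.597 for Hspa1a, 0.448 for Hspa8, 0.441 for Dnajb1, 0.420 for Hspe1 and 0.409 for Hsph1, and from 0.172 for Hspb1 to 0.313 for Hspa1b in the others, against a median of 0.156 over 10621 genes. Hspa1a, Hspa1b, Dnajb1 and Hsph1 were also the ones whose level in an embryo went with the level in its own yolk sac, among 10 such correlations computed over the 66 concepti, each after removal of group means. For Hspa1a, Pearson's r was 0.719 and Spearman's rho 0.717 (permutation test within groups, p = 1e-05, the smallest that 100000 resamples can give; adjusted p = 5e-05), and r was 0.704 without the 2 embryos farthest from the median. For Hspa1b, r was 0.481 and rho 0.529 (permutation p = 8e-05, adjusted p = 2e-04), and 0.421 without these 2. For Hsph1, r was 0.538 and rho 0.580, and for Dnajb1 r was 0.522 and rho 0.566, with permutation p of 2e-05 and 1e-05. Concepti of a litter are not independent, and within litters the r was 0.204 for Hspa1a, 0.364 for Hspa1b, 0.154 for Hsph1 and -0.219 for Dnajb1, none of them called. For the other 6 genes r lay between -0.187 and 0.123 over concepti and between -0.153 and 0.393 within litters, where the highest of all 10 was that of Hspa8. What differed between litters was not tested: mother, day and handling of a litter cannot be told apart.

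**Figure D3:**
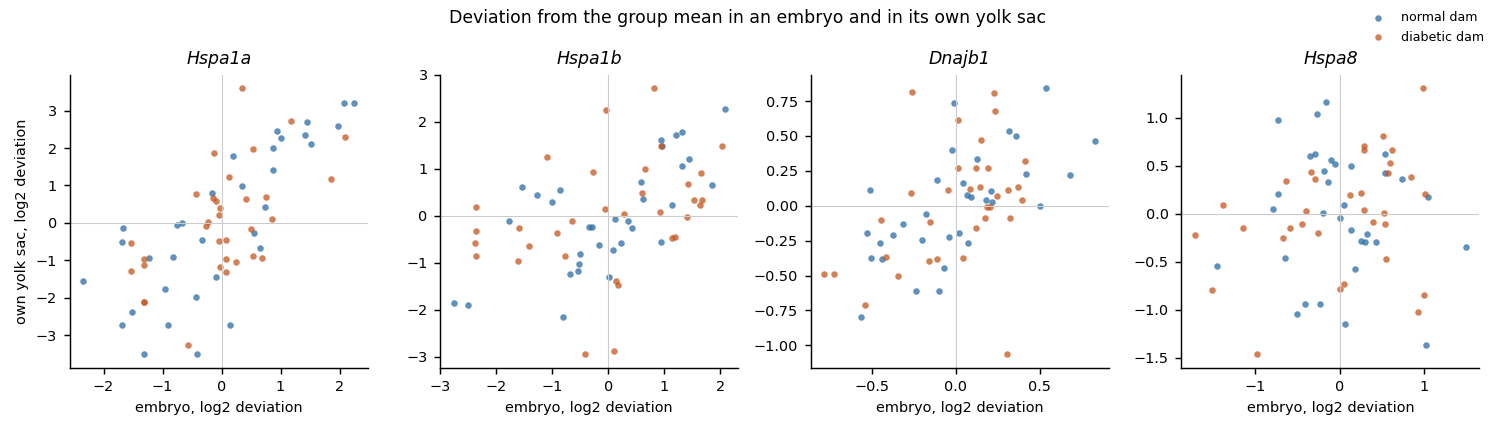
Deviations from group means of log2(normalized count + 1) in an embryo (x) and in its own yolk sac (y), 1 point for each of 66 concepti, for 4 of the genes. Hspa1a (r = 0.719) rises along the diagonal and Hspa8 (r = 0.123) does not, whereas within litters r is 0.204 for Hspa1a and 0.393 for Hspa8.

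Dnajb1, the Hsp40 that feeds clients to Hsp70, and Hsph1, the Hsp110 that recharges it, had intermediate levels. Dnajb1 ranged from 117 to 395 normalized counts in embryos and from 135 to 500.5 in yolk sacs. Hsph1 ranged from 354 to 1017 and from 379 to 1386. The groups overlapped nearly whole for both genes. The SD of log2 values within groups was 0.346 in embryos and 0.412 in yolk sacs for Dnajb1 and 0.312 and 0.365 for Hsph1, above the medians of genes of like mean (0.274 and 0.320, and 0.271 and 0.309). No difference between stages, averaged over pregnancies, was called. By pregnancy, as a description, Dnajb1 changed by -0.17 ± 0.12 in normal and 0.32 ± 0.12 in diabetic pregnancies in embryos, and by -0.13 ± 0.14 and 0.38 ± 0.14 in yolk sacs. Yolk sacs were higher in Dnajb1 by 0.20 at both stages (SE 0.10 and 0.09; adjusted p = 0.0491 and 0.0328) and in Hsph1 by 0.26 ± 0.07 and 0.24 ± 0.09 (adjusted p = 9.28e-04 and 0.0150). The call of Dnajb1 at the earlier stages stood in 6 of 13 other fits, whereas that of Hsph1 stood in all 13. Between pregnancies at the 7–9 somite stages, Dnajb1 differed by 0.19 ± 0.11 in embryos and 0.25 ± 0.13 in yolk sacs (adjusted p = 0.230 and 0.474), and Hsph1 by -0.12 ± 0.11 and 0.04 ± 0.14 (adjusted p = 0.509 and 0.952). At the 5–6 somite stages both were lower in diabetic pregnancies in both tissues, Dnajb1 by -0.28 and -0.27 and Hsph1 by -0.20 and -0.34, given without a test.

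Hsp90aa1, the inducible Hsp90, was the only one of the 10 genes called between diabetic and normal pregnancies, among embryos of 7–9 somite pairs, by edgeR's test; DESeq2 also called Hsp90ab1. Its lowest, median and highest values there were 2241, 2780 and 3997 normalized counts in 16 embryos of normal and 2204, 3664 and 5496 in 16 of diabetic pregnancies. The bottom of both ranges was alike and the diabetic group reached higher. The difference was 0.38 ± 0.10 on the log2 scale, a fold of 1.30 (edgeR, adjusted p = 0.0150), in a comparison that called 9.09% of 10628 genes, so that 1 call among the 8 of the 10 genes tested was near the share over all genes. Of 5 heart genes 3 were called higher in the same comparison, with a summed level of 1165–2142 normalized counts in the normal and 1762–3062 in the diabetic group, and their part in the difference was not tested. The call did not hold by litter: with counts summed per litter the difference was 0.17 (adjusted p = 0.531), with litter as a random block 0.31 (limma voom, adjusted p = 0.106), and without D24M15 0.27 (adjusted p = 0.0991). Means of 6 diabetic and 7 normal litters differed by 0.18 (exact permutation test over 1716 splits, two-sided, p = 0.221, adjusted p = 0.549 over 20 such tests), with 5 of 6 diabetic litters above the median of the normal ones. In yolk sacs at the same stages the difference was -0.01 ± 0.15 (adjusted p = 0.992), in a comparison that called 0.0194% of 10317 genes and none of the 9 tested here (unadjusted p under 0.05 for 1122 genes, 0 of them in the set). The difference between tissues was -0.38 ± 0.17 (adjusted p = 0.238), where 0.389% of 11577 genes were called. At the 5–6 somite stages Hsp90aa1 differed by 0.05 ± 0.13 in embryos and -0.40 ± 0.11 in yolk sacs, without a test.

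Hsp90ab1, the constitutive Hsp90 and the most abundant RNA of the set, was lower in yolk sacs than in embryos. Its values ran from 8979 to 23750 normalized counts in embryos, with group medians from 15640 to 17520, and in yolk sacs from 7931 to 16920 outside 1 library, with group medians from 10910 to 11630. The exception was a yolk sac of a diabetic pregnancy at the later stages (conceptus D28M36C) with 38010 normalized counts, whose embryo held the most extreme score of all embryos on the first principal component. In the same yolk sac Hspa8 (53), Hspd1 (940) and Hspe1 (195) had the lowest normalized counts of its group. The lowest raw counts of these genes in that group were 16, 284 and 59, and the part of depth in the value was not tested. The difference of yolk sac from embryo was -0.37 ± 0.07 at the 5–6 and -0.50 ± 0.08 at the 7–9 somite stages on the log2 scale (adjusted p = 1.57e-06 and 6.78e-08), where Hsp90aa1 was higher by 0.21 ± 0.09 and 0.30 ± 0.09 (adjusted p = 0.0267 and 0.00127). The former call of Hsp90aa1 stood in 7 of 13 other fits and was lost with DESeq2 (0.16, adjusted p = 0.0953), without D24M15 (0.19, adjusted p = 0.0533) and without conceptus N28M06A (0.15, adjusted p = 0.102), and the latter stood in all 13. Hsp90ab1 did not pass the test between stages in embryos (0.15 ± 0.06, adjusted p = 0.0544) or in yolk sacs (0.07 ± 0.09, adjusted p = 0.534), and Hsp90aa1 rose between stages by 0.28 ± 0.09 in yolk sacs (adjusted p = 0.0126) but not within litters (0.21, adjusted p = 0.178). Between pregnancies at the 7–9 somite stages, Hsp90ab1 differed by 0.22 ± 0.08 in embryos (adjusted p = 0.0783) and 0.23 ± 0.14 in yolk sacs (adjusted p = 0.576), and without conceptus D28M36C the latter was 0.03. By litter it differed by 0.23 in embryos, with all 6 diabetic litters above the median of the normal ones (exact permutation p = 0.0128, adjusted p = 0.256). At the 5–6 somite stages Hsp90ab1 differed by 0.01 ± 0.09 in embryos and -0.04 ± 0.11 in yolk sacs, without a test. The first principal component correlated with Hsp90ab1 at r = 0.637 in embryos and 0.857 in yolk sacs.

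**Figure D4:**
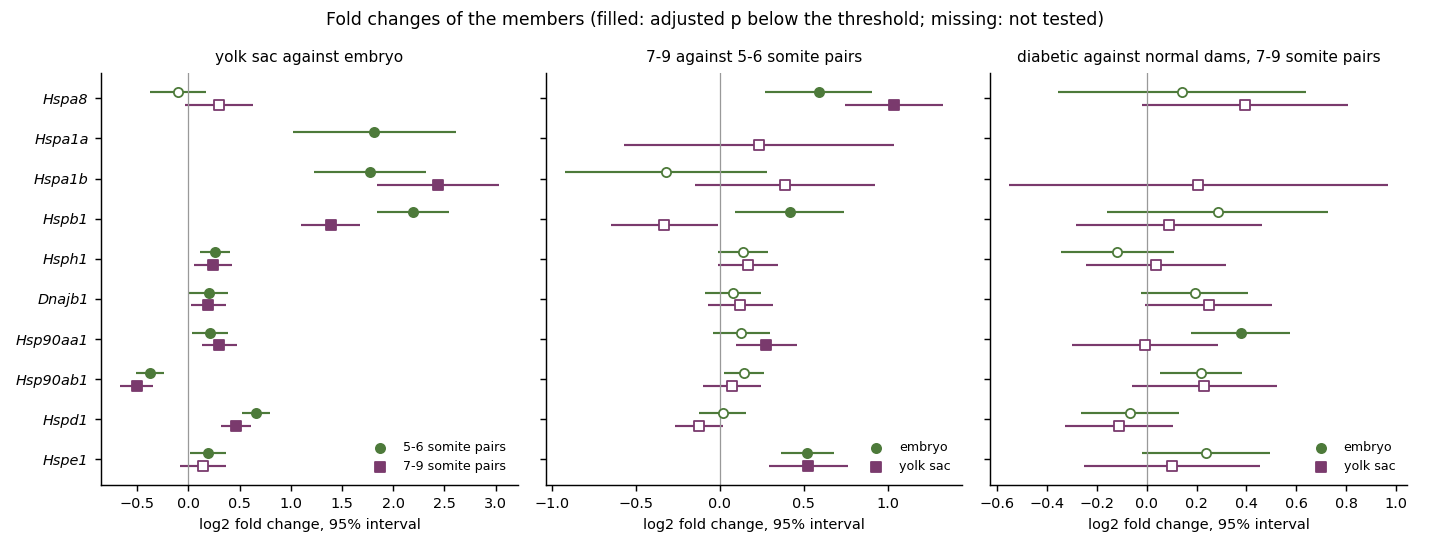
Log2 fold changes with 95% intervals of the genes tested, between tissues, stages and, at the 7–9 somite stages, pregnancies; filled points passed an adjusted p of 0.05 (edgeR). Hspb1, Hspa1a and Hspa1b lie between 1.39 and 2.43 for yolk sac over embryo, and Hsp90aa1 in embryos is the one filled point among pregnancies.

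Hspb1, the small heat shock protein also called Hsp25 or Hsp27, was low and more abundant in the yolk sac. In embryos it ranged from 2.32 to 26.5 normalized counts and in yolk sacs from 12.8 to 174, with group medians of 31.5, 46.9, 29.6 and 32.8 in normal and diabetic pregnancies at the earlier and then the later stages. It was higher in yolk sacs by 2.19 ± 0.18 at the 5–6 somite stages, a fold of 4.56, and by 1.39 ± 0.14 at the 7–9 somite stages, a fold of 2.62 (adjusted p = 6.43e-19 and 6.49e-14). In embryos it rose between stages by 0.42 ± 0.16 (adjusted p = 0.0447), and within litters by 0.75 (adjusted p = 0.00733). The call stood in 10 of 15 other fits and was lost without D24M15 (0.41, adjusted p = 0.0946) and without conceptus D28M36C (0.41, adjusted p = 0.0515). By pregnancy the change was 0.05 ± 0.23 in normal and 0.78 ± 0.23 in diabetic pregnancies, as a description. In yolk sacs the change was -0.33 ± 0.16 (adjusted p = 0.0907) and within litters -0.50 (adjusted p = 0.0391), and the difference of the 2 changes, -0.74 ± 0.23, just missed the threshold (adjusted p = 0.0558), in a comparison that called 3.23% of 12183 genes and none of the 10 (2 at an unadjusted p under 0.05). Between pregnancies at the 7–9 somite stages Hspb1 differed by 0.28 ± 0.22 in embryos and 0.09 ± 0.18 in yolk sacs (adjusted p = 0.404 and 0.898). At the 5–6 somite stages Hspb1 differed by -0.43 ± 0.23 in embryos and 0.60 ± 0.24 in yolk sacs, without a test. In each tissue this sign was opposite to that of Hspa8.

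Hspd1 and Hspe1, whose proteins form 1 machine and whose genes are neighbours on opposite strands, did not move together between stages. Hspe1 had group medians of 452, 442, 559 and 712 normalized counts in embryos and of 517, 459, 629 and 724 in yolk sacs, in normal and diabetic pregnancies at the earlier and then the later stages. It rose between stages by 0.52 ± 0.08 in embryos and 0.53 ± 0.12 in yolk sacs (adjusted p = 8.58e-07 and 2.39e-04), and within litters by 0.60 and 0.43 (adjusted p = 7.60e-07 and 0.0359). Hspd1 had medians of 844.5, 917, 923 and 926 in embryos, against 1384, 1361, 1265 and 1094 in yolk sacs. Its changes were 0.02 ± 0.07 in embryos and -0.12 ± 0.07 in yolk sacs (adjusted p = 0.890 and 0.171), and without D24M15 the latter was -0.27 (adjusted p = 0.00212). Log2 of the ratio of Hspe1 to Hspd1 within a library, a measure chosen after these values had been seen, was -0.98 ± 0.43 (SD, n = 34) in earlier and -0.50 ± 0.36 (n = 32) in later embryos, and -1.49 ± 0.36 and -0.87 ± 0.45 in yolk sacs. It was higher at the later stages in each of the 10 litters that had concepti at both, by 0.55 on average in either tissue (exact permutation test with sign flips over litters, two-sided, p = 0.00195, the smallest that 10 litters allow). A ratio shows unequal change of the 2 RNAs and does not say that one of them stayed constant.

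Between tissues, Hspd1 was higher in yolk sacs by 0.66 ± 0.07 at the 5–6 and by 0.47 ± 0.07 at the 7–9 somite stages (adjusted p = 3.55e-14 and 2.86e-08). Hspe1 was higher by 0.19 ± 0.09 at the earlier stages (adjusted p = 0.0393), a call that stood in 5 of 13 other fits and was lost with the conceptus as a block (0.15, adjusted p = 0.0872), and by 0.14 ± 0.11 at the later ones (adjusted p = 0.234). Between pregnancies at the 7–9 somite stages neither was called: Hspe1 differed by 0.24 ± 0.13 in embryos and 0.10 ± 0.17 in yolk sacs (adjusted p = 0.214 and 0.871), and Hspd1 by -0.07 ± 0.10 and -0.11 ± 0.11 (adjusted p = 0.678 and 0.739). At the 5–6 somite stages Hspe1 differed by 0.06 ± 0.10 in embryos and -0.22 ± 0.14 in yolk sacs, and Hspd1 by 0.05 ± 0.10 and -0.20 ± 0.10, without a test. The shared stretches of Hspd1 lie in its shorter transcripts, with 0% in Hspd1-201, and the pseudogene sharing them held 8.53 counts per library. In Hspe1 all 166 shared stretches also occur in a protein-coding gene that has no row in the count table. A pseudogene that shares 4 of them held 0.114 counts per library, which cannot show how reads matching the protein-coding gene bear on Hspe1.

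**Figure D5:**
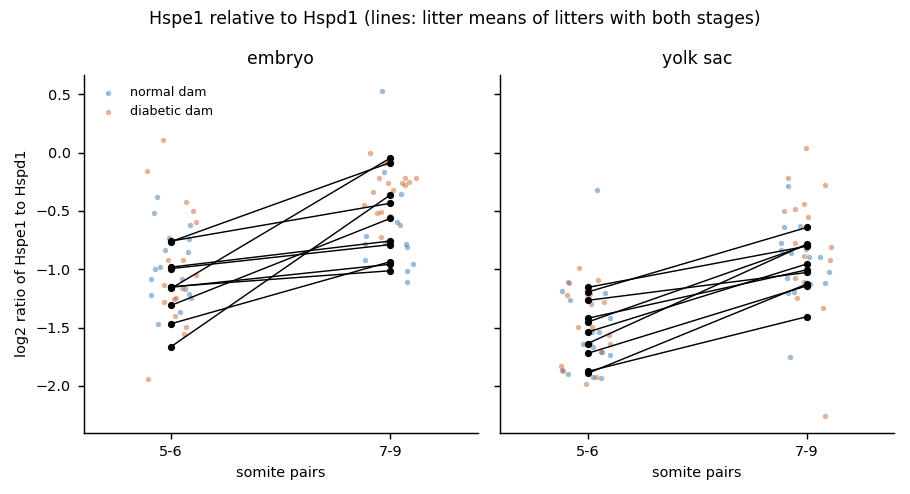
Log2 ratio of Hspe1 to Hspd1 by tissue and somite stage; points are libraries, lines join the means of the earlier and later concepti of a litter. The mean ratio is -0.98 in earlier and -0.50 in later embryos, and -1.49 and -0.87 in yolk sacs.

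Over the whole set, 8 of the 10 genes tested at the 5–6 somite stages were higher in yolk sacs and 1 was lower, where 39.4% of 11677 genes were higher and 39.8% lower. With DESeq2's size factors in place of TMM, 5 were higher and 1 lower at these stages. At the 7–9 somite stages 6 of 9 were higher and 1 lower, where 38.7% of 11577 were higher and 42.6% lower. The median difference of the genes tested was 0.24 and 0.30 on the log2 scale, and that of all genes was -0.003 and -0.04. Some of the genes also varied together or against each other within groups, among 45 pairs of genes in each tissue and 90 correlations in all. The median r over the pairs was 0.173 in embryos and 0.13 in yolk sacs. In embryos 17 pairs were called and in yolk sacs 15, and the like share among pairs of other genes is not given. In yolk sacs the closest pair was Hspa1a with Hspa1b (r = 0.796, rho = 0.830; in embryos r = 0.552, rho = 0.522), followed by Hspa8 with Hspe1 (r = 0.687, rho = 0.680; in embryos 0.565 and 0.532). Hsp90ab1 ran against Hspe1 (r = -0.736, rho = -0.632; in embryos -0.424 and -0.350) and against Hspa8 (r = -0.585, rho = -0.497; in embryos -0.390 and -0.416). The permutation p of these 4 pairs was at most 0.0048 in either tissue, and at most 0.0166 after adjustment over the 90. Without the 2 libraries farthest from the median, r of Hsp90ab1 with Hspe1 was -0.670 in yolk sacs and -0.338 in embryos. Deviations from litter means left 11 of 17 called pairs in embryos and 8 of 15 in yolk sacs, and the r of Hspa1a with Hspa1b fell to 0.417 in yolk sacs and 0.10 in embryos. The pairs with Hspa8, Hspe1 and Hsp90ab1 are those that also follow the first principal component, with which Hspe1 correlated at -0.514 in embryos and -0.793 in yolk sacs.

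Other chaperones gave a setting for these values. Of 15 chaperones of the endoplasmic reticulum, 14 were higher in yolk sacs at either stage, with Dnajc3 (1.68 at the 7–9 somite stages, log2 scale), Calr (1.36) and Hsp90b1 (0.89) among them. Of 12 mitochondrial chaperones and proteases, which work beside Hspd1 and Hspe1, 10 were higher at either stage, such as Dnaja3 (0.95), Grpel1 (0.83) and Hspa9 (0.61). Of 10 cochaperones of Hsp90, 6 were lower at the earlier and 8 at the later stages, with Ptges3 (-0.54), Fkbp4 (-0.49), Stip1 (-0.47) and Cdc37 (-0.33) among the latter, and Ahsa1 (0.20) was the 1 that was higher. Of 9 Bag and exchange factors of Hsp70, 4 were higher, including Bag2 (1.69) and Bag3 (0.74), and 4 lower at the later stages. Of 5 further small heat shock proteins tested, Cryab (0.36) and Hspb8 (0.30) were higher and 3 lower, including Hspb7 (-4.15) and Hspb2 (-1.98), which are known from heart and muscle. Among 14 subunits of the chaperonin CCT and of prefoldin, 3 were higher and 5 lower. Of 11 cytosolic J-domain proteins tested, the family of Dnajb1, 2 were higher and 5 lower at the later stages, with Dnajc9 (-0.66) and Dnaja2 (0.30) as examples. Of 5 further Hsp70 and Hsp110 genes tested, Hspa12b (1.14) and Hspa13 (0.59) were higher and Hspa4l (-0.33) lower. Of 8 other heat-inducible genes, Hmox1 (1.70), which degrades heme, and the collagen chaperone Serpinh1 (0.53) were higher and Ier5 (-1.02) lower. Of 13 immediate early genes, 8 were higher and 3 lower. Of 3 heat shock factor genes tested, 2 were higher and 1 lower: Hsf1, the regulator of the heat shock response, differed by 0.32 and Hsf2 by -0.58.

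Between stages, the small heat shock protein gene Cryab rose in both tissues (0.48 in embryos and 0.82 in yolk sacs), as did Ubb, a heat-inducible ubiquitin gene (0.66 and 1.24), and Bag1 (0.46 and 0.53). Hspa9, the mitochondrial Hsp70, fell by 0.31 in embryos and fell by 0.17 in yolk sacs, and Cdc37 fell by 0.27 in both. Between pregnancies, among embryos of 7–9 somite pairs, 9 of 91 genes tested from these lists were called higher, where 5.2% of all genes were, and none was called lower. These calls are over concepti and are not given by litter. Calr (0.46), Pfdn1 (0.38) and Bag1 (0.32) differed the most of the 9, which also held the Hsp90 cochaperones Fkbp4 (0.28) and Cdc37 (0.26). Of the immediate early genes, Egr1 (-2.22) and Dusp1 (-0.59) were lower. In yolk sacs at those stages no gene of the lists was called. The summed level of 13 immediate early genes, which are induced within minutes by many stimuli, correlated in yolk sacs with Hspa1a (r = 0.483), Hspa1b (0.471) and Hspe1 (-0.502), and in embryos with none of the 10 above 0.277 in size. Its part in the values above was not tested.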

How the data were processed

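Libraries of 3′ RNA ends (QuantSeq 3′ FWD) had been made from single embryos and yolk sacs. The deposited table holds whole-number counts of unique molecular identifiers per gene for 136 libraries and 47643 genes, made by the authors with STAR and HTSeq on mm10 per the submitters' processing notes, without versions. How reads matching several genes were counted is not given in the sources used here. For 26051 genes the deposit gives no symbol. All 10 members have 1.

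Groups came from the labels (tissue, somite pairs, pregnancy), and 4 repeat libraries were left out, which left 132. Each contrast was fitted on its own samples with edgeR 4.0.16 (R 4.3.3, TMM, genes kept by filterByExpr at a minimum count of 10, quasi-likelihood test, Benjamini-Hochberg adjustment over all genes kept, threshold 0.05). Printed levels are counts divided by DESeq2 1.42.0 size factors over all 132 libraries, in place of the planned factors within a tissue and stage, so that tissues and stages share a scale. Log2 values of libraries carry a pseudocount of 1. Litter means were compared by exact permutation, and correlations by 100000 permutations within groups (scipy 1.17.1, Python 3.11.15). The edgeR fit was tested on simulated data. Embryo and yolk sac carry the same conceptus name in the labels, which pairs them, and the fit with the conceptus as a block is an alternative. In 2 of the 66 concepti the sex labels of embryo and yolk sac differ, and these concepti were kept except in 1 alternative. Other alternatives were DESeq2, limma 3.58.1 with litter as a random block, other filters and size factors, covariates, and leaving out litters or libraries.

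All 10 members are named. From each other list the text gives counts and the called genes furthest from 0 (mean of 10 or more normalized counts in a group), and from genes with a mean of at least 50 the 5 most like Hspa8 and Hspa1b, of which 1 is not reported here. Further genes named were chosen after their values were seen. The members and all lists were chosen with earlier results of these data known.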

Additional observations from a re-analysis of the deposited data

How the results depend on the processing

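Of the values of genes called in a comparison, 326 were recomputed under an alternative and 0 changed sign, while 66 of 1635 values of genes not called did. With the conceptus as a block, which pairs embryo and yolk sac, the call of Hspe1 at the 5–6 somite stages was lost (0.15, adjusted p = 0.0872) and Hspa8 at the 7–9 somite stages was gained (0.34, adjusted p = 0.0494), and no other call between tissues changed. The count of members called between pregnancies in embryos of 7–9 somite pairs, 1, was 2 with DESeq2 and with the first principal component as a covariate, and 0 with litter as a random block, with counts summed per litter, with all 8 groups in 1 fit and without litter D24M15. Leaving out 1 litter at a time gave 0 to 2, with 0 also without N28M05 and 2 without N28M06. In yolk sacs at those stages, leaving out D24M15 turned Hspa8 to -0.0227, Hsph1 to -0.39 and Dnajb1 to -0.0072, and leaving out each litter in turn gave up to 0.63, 0.11 and 0.32. The change of Hsph1 between stages was -0.0313 in embryos within litters and -0.0453 in yolk sacs without D24M15. The count of members whose change between stages differed between tissues, 0, was 1 with DESeq2, without concepti of unlike sex labels, with repeats added to their originals, and without conceptus D28M36C or N28M06A, alternatives chosen after seeing the data. With deviations from litter means, members called between embryo and own yolk sac went from 4 to 0 (Dnajb1 at -0.219), called pairs went from 17 to 11 in embryos and from 15 to 8 in yolk sacs, and r was -0.017 for Hspa8 with Hspa1a in embryos and -0.202 for Hspa1a with Hsp90ab1 and 0.146 for Hspa1a with Hspe1 in yolk sacs. The causes were not tested. Counts of Hspa1a and Hspa1b in embryos were near 0 in many libraries, and Hspa1a was not tested there between stages or pregnancies.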
